A study of Mus musculus with 11 samples.

Results

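The 1788 regions described here are ATAC-seq peaks that were more open in anergic CD4 T cells than in each of 3 other CD4 T cell populations. They were chosen by their own signal. For every peak the values log2(deposited signal + 1) were averaged over the libraries of each group, and a peak was kept where the anergic mean was at least 1 above the mean of Treg, of Teff and of naive cells. Of 38509 peaks in all, 4.64% met this rule. Because the anergic values chose the peaks, every anergic level or difference below is a description and was not tested. ATAC-seq uses a transposase to cut and tag DNA that is not packed against nucleosomes, so the number of reads in a peak follows how accessible that stretch is. The study, whose title names the transcription factor BATF and the death-promoting protein BIM (gene Bcl2l11) in tolerant T cells, sorted all 4 populations from mixed spleen and lymph node of wildtype C57BL/6 Foxp3-GFP polyclonal mice that had no treatment.

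Anergic cells (n = 3 libraries) were sorted as CD44high, FOXP3 negative, CD73high, FR4high and NRP1 positive. Treg cells (n = 3) were FOXP3 and CD25 positive. Teff cells (n = 3) were CD44high and FOXP3 negative but low for CD73 and FR4, and naive cells (n = 2) were CD44low. The age and sex of the mice are not given in the sources used here, nor whether the libraries of a group came from separate animals, so p-values measure only the spread between these libraries. The anergic population is defined by surface markers of unresponsiveness and not by a functional test in these files. The deposited signal is reads per peak times 1 factor per library. Reads in peaks ranged from 14.7 to 68.8 M per library, and the median peak stood at 208 to 225 units of signal in every library. At the peak nearest to Foxp3, which encodes the factor that defines Treg cells, the anergic libraries had 184, 114 and 96.1 units, against 1597, 1118 and 1278 in Treg, 15.9, 14 and 63.3 in Teff, and 15.4 and 7.74 in naive libraries. The anergic values lay above those of Teff and naive cells and far below those of Treg cells. Whether Treg cells or another cell type in the sort add to the results was not tested. The libraries are bulk samples, in which fewer cells with an open site and less opening per cell cannot be told apart.

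T cell anergy is a state in which a T cell that has met its antigen without adequate co-stimulation survives but no longer proliferates or makes cytokine on a new encounter. In other systems it is known to depend on NFAT acting with little AP-1, whereas full activation uses both together. AP-1 factors are dimers of FOS, JUN and BATF family proteins, and BATF with JUN can bind next to IRF4 or IRF8 at composite elements. NFAT proteins enter the nucleus on calcium signalling. Distal open regions of this kind are often enhancers, which act on genes at some distance, so the gene with the nearest start site is a label of position and not a known target.

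Sequences of 11 members are shown to make visible the short motifs that the members carried more or less often. They are the central bases of each peak (at most 300, forward strand, GRCm38.p6, which is the mm10 build of the files), from the RefSeq genome sequence. Capitals mark exact matches, on either strand, to the AP-1 motif TGAGTCA, to the NFAT motif TGGAAAA and to the octamer bound by OCT factors, ATTTGCAT. Hhat, Alox12, Fam43a and Ikzf2 are shown because each has 1 AP-1 match and a large gap to the other groups.
Hhat (chr1:192536498-192536754): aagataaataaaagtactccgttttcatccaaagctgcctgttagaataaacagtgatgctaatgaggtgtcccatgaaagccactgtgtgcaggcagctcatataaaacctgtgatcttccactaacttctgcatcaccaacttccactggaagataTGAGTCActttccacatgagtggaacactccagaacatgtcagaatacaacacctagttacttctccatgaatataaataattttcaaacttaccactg
Alox12 (chr11:70271688-70271987): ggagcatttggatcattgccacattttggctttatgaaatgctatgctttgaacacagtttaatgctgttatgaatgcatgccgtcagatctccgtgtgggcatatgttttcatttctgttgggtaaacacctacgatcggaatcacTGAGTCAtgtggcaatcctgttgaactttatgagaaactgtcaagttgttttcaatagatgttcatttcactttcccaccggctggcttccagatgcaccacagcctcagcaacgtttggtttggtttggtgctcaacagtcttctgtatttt
Fam43a (chr16:30771571-30771870): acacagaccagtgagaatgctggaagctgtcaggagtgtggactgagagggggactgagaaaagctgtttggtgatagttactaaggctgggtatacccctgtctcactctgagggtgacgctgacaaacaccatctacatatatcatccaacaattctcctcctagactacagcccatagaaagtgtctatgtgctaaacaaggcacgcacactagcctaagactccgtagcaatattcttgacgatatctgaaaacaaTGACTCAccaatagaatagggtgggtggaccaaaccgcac
Ikzf2 (chr1:69469318-69469617): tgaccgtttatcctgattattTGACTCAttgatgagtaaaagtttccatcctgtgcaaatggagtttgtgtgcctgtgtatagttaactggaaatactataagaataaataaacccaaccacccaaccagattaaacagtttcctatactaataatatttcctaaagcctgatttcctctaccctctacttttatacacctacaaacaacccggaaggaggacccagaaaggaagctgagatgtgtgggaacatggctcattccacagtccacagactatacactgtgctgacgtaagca
The next set has an NFAT match or the octamer. The Atxn1 peak holds 1 AP-1 and 1 NFAT match, the Tox peak 2 NFAT matches and no AP-1 match, the Il21 peak 1 NFAT match beside the start site of the gene, and the Myo1d peak 1 octamer.
Atxn1 (chr13:45837672-45837971): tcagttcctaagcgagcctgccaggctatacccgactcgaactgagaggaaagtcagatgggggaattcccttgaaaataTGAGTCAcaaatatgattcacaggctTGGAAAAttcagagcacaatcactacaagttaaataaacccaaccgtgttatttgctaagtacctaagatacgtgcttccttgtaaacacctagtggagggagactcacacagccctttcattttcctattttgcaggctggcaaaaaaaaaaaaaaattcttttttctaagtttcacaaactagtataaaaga
Tox (chr4:6882660-6882959): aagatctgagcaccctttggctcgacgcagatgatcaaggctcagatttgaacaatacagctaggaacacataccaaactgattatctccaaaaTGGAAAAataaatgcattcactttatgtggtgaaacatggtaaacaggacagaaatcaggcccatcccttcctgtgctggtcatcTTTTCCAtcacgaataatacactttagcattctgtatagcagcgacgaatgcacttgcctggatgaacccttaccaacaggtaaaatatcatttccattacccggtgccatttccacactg
Il21 (chr3:37232710-37233009): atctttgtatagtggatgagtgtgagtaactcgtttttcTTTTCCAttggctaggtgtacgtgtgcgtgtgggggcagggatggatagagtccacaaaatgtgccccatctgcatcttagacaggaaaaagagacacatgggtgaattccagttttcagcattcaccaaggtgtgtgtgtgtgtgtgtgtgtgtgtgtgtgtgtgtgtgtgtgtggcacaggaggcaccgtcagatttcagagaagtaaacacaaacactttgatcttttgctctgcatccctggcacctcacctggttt
Myo1d (chr11:80666243-80666542): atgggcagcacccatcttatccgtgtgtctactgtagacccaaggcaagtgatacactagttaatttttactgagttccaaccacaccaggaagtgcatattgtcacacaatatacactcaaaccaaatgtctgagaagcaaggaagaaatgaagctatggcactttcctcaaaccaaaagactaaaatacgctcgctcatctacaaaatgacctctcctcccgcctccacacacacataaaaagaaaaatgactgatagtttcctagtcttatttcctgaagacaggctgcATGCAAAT
The last set has none of these 3 motifs in the window. Scp2d1 marks the member with the largest gap of all, and Batf and Bcl2l11 are the genes the study is named for.
Scp2d1 (chr2:144941249-144941548): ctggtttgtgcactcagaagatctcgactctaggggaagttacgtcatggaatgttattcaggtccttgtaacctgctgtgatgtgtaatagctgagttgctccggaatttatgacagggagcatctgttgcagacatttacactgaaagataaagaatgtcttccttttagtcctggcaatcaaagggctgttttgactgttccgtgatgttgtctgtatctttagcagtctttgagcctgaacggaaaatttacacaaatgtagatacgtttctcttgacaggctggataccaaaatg
Bcl2l11 (chr2:128117676-128117975): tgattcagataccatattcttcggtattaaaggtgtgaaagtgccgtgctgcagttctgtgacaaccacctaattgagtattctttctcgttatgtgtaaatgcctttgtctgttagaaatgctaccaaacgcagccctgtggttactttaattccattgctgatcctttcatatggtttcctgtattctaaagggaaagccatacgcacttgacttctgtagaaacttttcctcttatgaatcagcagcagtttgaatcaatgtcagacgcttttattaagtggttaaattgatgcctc
Batf (chr12:85706947-85707246): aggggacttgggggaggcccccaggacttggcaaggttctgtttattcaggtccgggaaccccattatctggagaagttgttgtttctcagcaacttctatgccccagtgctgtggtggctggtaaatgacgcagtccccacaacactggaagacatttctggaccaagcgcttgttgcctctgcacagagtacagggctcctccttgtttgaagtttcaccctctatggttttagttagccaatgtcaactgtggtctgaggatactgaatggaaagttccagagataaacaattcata

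At the median the members were low in naive cells, intermediate in Treg and Teff cells and close to the other peaks in anergic cells. Their median signal was 244, 235 and 212 units in the anergic libraries, against 64.2, 80.9 and 64.6 in Treg, 44.7, 47.1 and 63.3 in Teff, and 13 and 13.2 in naive libraries. The anergic medians were close to the median of all peaks, and the medians of the other groups lay below it. Some members were high in every group, such as the Tox2 start-site peak, which averaged 4397 units in anergic, 1935 in Treg, 1879 in Teff and 1405 in naive libraries. The members held 1.73% to 1.98% of the reads in peaks of the anergic libraries, against 0.62% to 0.751% in Treg, 0.456% to 0.546% in Teff, and 0.179% and 0.183% in naive libraries. In the naive libraries 169 and 206 members stood at 1 read, the lowest value in the table, against 0 in the anergic libraries, 4 to 7 in Treg and 5 to 10 in Teff libraries. No fold change against naive cells is therefore given for single peaks at that floor.

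**Figure D1:**
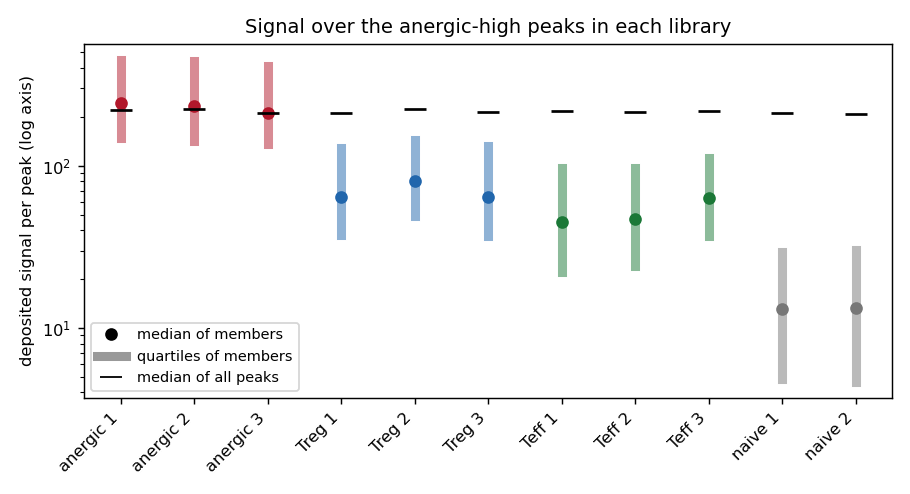
Deposited signal (log axis) over the 1788 members in each of 11 libraries, with the median as a point, the quartiles as a bar and the median of all peaks as a black dash. The anergic medians sit at 212 to 244 and meet the dashes, and the naive medians sit at 13 and 13.2.

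The gap between anergic cells and the next highest group had a median of 1.47 (log2 of signal + 1), which is 2.78-fold, with quartiles of 1.21 and 1.91 and a highest value of 4.30. It reached 1.5 in 864 members (48.3%), 2 in 374 (20.9%) and 3 in 48 (2.68%). Over all peaks the median gap was -0.26, and anergic cells were the highest group in 26.8%. By group, the median difference of the members was 1.64 for anergic minus Treg, 2.14 for anergic minus Teff and 4.28 for anergic minus naive. The same rule applied to each other group found 202 peaks for Treg (0.525%), 847 for Teff (2.2%) and 1517 for naive (3.94%). The lowest anergic library lay above the highest of the 8 other libraries in 1767 members (98.8%), and 21 overlapped. The rule read these same values and favours such separation, so the count is a description. The same share over all peaks is not given here. At the margin, just inside stood peaks near Olfr1423 and Itpkb and just outside those near Lrrc8d, Cox7c and Il1b, all with a gap that rounds to 1. The Itpkb peak averaged 517 units in anergic, 262 in Treg, 72.6 in Teff and 13.6 in naive libraries, and the Il1b peak, just outside, 271 in anergic, 133 in Treg, 71.8 in Teff and 23.8 in naive libraries.

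The choice was also repeated with 1 anergic library left out, which leaves the Treg, Teff and naive means in the rule, so the values are a description. Without anergic replicate 1, 2 or 3 the rule chose 1782, 1764 and 1860 peaks. In the anergic library left out, 84%, 87.4% and 80.5% of them were at least 1 above every other group, against 4.97%, 5% and 4.37% of all peaks, and 99.7% to 99.9% were above every other group by any amount. The median gap in the left-out library was 1.55, 1.54 and 1.40, against 1.47, 1.48 and 1.49 in the pair that chose them.

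The 12 members with the largest gap, among those with at least 10 reads in every anergic library and a named nearest gene, lay near Scp2d1, Hhat, Bpgm, Scg2, Myo1d, Chn1os3, Alox12, Cmtm4, Ppp2r5c, Commd10, Dusp14 and Nab1. None was at a promoter, and their distance to the nearest start site ran up to 234.6 kb. The Scp2d1 peak (chr2:144941198-144941599, intergenic, 117.7 kb downstream) had 337, 222 and 235 units in anergic libraries, against 10.1, 27.7 and 6.33 in Treg, 3.46, 9.08 and 20 in Teff, and 4.06 and 2.32 in naive libraries. Its gap was 4.30 and its other 3 groups did not pass the test between them. The peak in an intron of Hhat, which encodes the enzyme that attaches palmitate to Hedgehog proteins, had 312, 309 and 311 units in anergic libraries (chr1:192536498-192536754), against 15.8, 40.4 and 10.1 in Treg, 3.46, 15.7 and 11.7 in Teff, and 0.812 and 5.42 in naive libraries. The anergic values were nearly equal, while 1 Treg library stood above the other two.

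The strongest of the 12 in signal was a peak in an intron of Chn1os3, a noncoding RNA gene (chr2:73604840-73605762), at 1515, 1292 and 1263 units in anergic libraries, against 46.2, 119 and 54.4 in Treg, 106, 81.8 and 132 in Teff, and 28.4 and 13.9 in naive libraries. Here Teff was the next highest group, and Treg and Teff both passed against naive cells by 1.70 ± 0.34 and 2.33 ± 0.34 (log2 ± SE, adjusted p = 0.000348 and 1.04e-05). The Dusp14 peak lay 24.9 kb downstream of the start site of that gene, a phosphatase, and inside a UTR of the neighbouring gene Synrg (chr11:84043245-84043738). It had 869, 541 and 584 units in anergic libraries, against 49.6, 68.1 and 58.2 in Treg, 31.2, 31.4 and 60 in Teff, and 13 and 4.65 in naive libraries, and held an AP-1 match inside a BATF-IRF composite. Dusp14 had 6 members among 7 peaks, with gaps of 1.38 to 3.46. The Myo1d peak, in an intron of that unconventional myosin gene (chr11:80666144-80666641), had 270.2, 287 and 258 units in anergic libraries, against 27, 31.9 and 7.6 in Treg and 16.6, 24.8 and 11.7 in Teff libraries, and 1 read in each naive library. All anergic values lay above all Treg and Teff values, and the naive libraries were at the floor of the table.

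**Figure D2:**
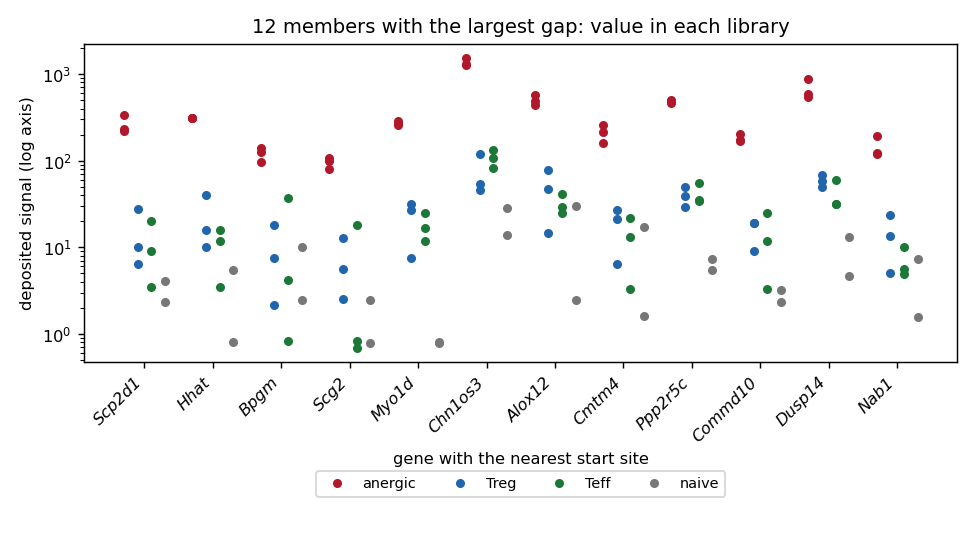
Deposited signal (log axis) in each library at the 12 members with the largest gap, 1 point per library, with anergic, Treg, Teff and naive from left to right within each gene. In all 12 the lowest anergic point lies above every other point.

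The differences between the other 3 groups were tested in 1 limma fit over 38493 peaks. The rule placed each of these groups below the anergic mean and did not set their order, but it read the same values, so the shares of members are given beside the background as a description. Most members were more open in both Treg and Teff cells than in naive cells. Treg was higher than naive in 1474 members (82.4%), while 22.3% of all peaks tested were called in that direction. Treg was lower than naive in 11 members (0.615%), against a background of 23%. Teff was higher than naive in 1348 members (75.4%; background 22.7%) and lower in 12 (0.671%; background 17.4%). The median difference of the members was 2.43 for Treg minus naive and 1.93 for Teff minus naive, against -0.04 and -0.03 over all peaks.

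Between Treg and Teff the members leaned to Treg. Treg was higher than Teff in 479 members (26.8%), beside a background of 14.4%, and lower in 91 (5.09%), beside a background of 18.2%, with a median difference of 0.40 in members and -0.02 over all peaks. With libraries brought to the same read total, 526 members were higher and 67 lower in Treg, and the all-peak split became 6935 higher and 5163 lower, against 5535 higher and 6998 lower as deposited. The same scaling gave 10709 higher and 5721 lower peaks for Treg against naive, against 8568 and 8867 as deposited, and moved the median of all peaks in that comparison to 0.12. Without single libraries the count of members higher in Treg lay between 353 and 558. Treg was the next highest group after anergic in 1227 members (68.6%), Teff in 520 (29.1%) and naive in 41 (2.29%). Over all peaks the highest of these 3 groups was Treg in 30.7%, Teff in 28% and naive in 41.3%. Naive was the lowest of the 3 in 1683 members (94.1%), compared with 36.5% of all peaks.

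The most frequent pattern, in 860 members (48.1%), was a call for both Treg and Teff above naive with no call between Treg and Teff. In a further 358 (20%) Treg was also called above Teff, and in 54 (3.02%) Treg was called below Teff while both were above naive. No call between the 3 groups was made in 203 members (11.4%).

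**Figure D3:**
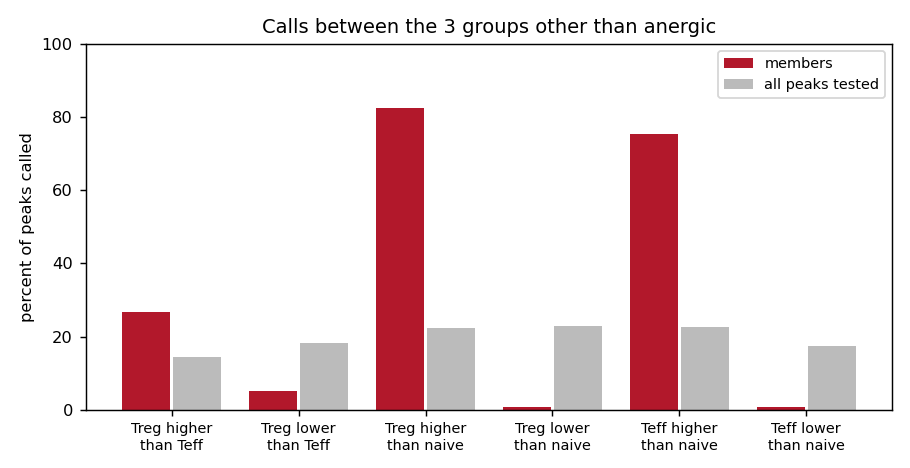
Percent of peaks called in limma (adjusted p under 0.05) among the 1788 members (red) and all 38493 peaks tested (grey), for each direction of the 3 comparisons that leave out anergic cells. Members exceed the background for Treg above naive (82.4%), Teff above naive (75.4%) and Treg above Teff (26.8%) and lie below it in the other directions.

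Single members at the ends of these comparisons were picked after their values were seen. The largest difference in favour of Treg over Teff was at a peak 93.3 kb from the start of Zc3h12c, which encodes a regulatory ribonuclease (chr9:52261568-52261827). It averaged 143 ± 34.7 units in anergic, 66.3 ± 23 in Treg, 4.66 ± 3.43 in Teff and 0.793 ± 0.027 in naive libraries (SD), and Treg was 3.81 ± 0.61 above Teff (log2 ± SE, adjusted p = 5.79e-05). An intronic peak of Pde4d, a cyclic AMP phosphodiesterase gene, was similar, at 225 ± 50.6 units in anergic, 57 ± 16.8 in Treg, 5.66 ± 5.15 in Teff and 3.97 ± 0.135 in naive libraries, with Treg 3.35 ± 0.52 above Teff (adjusted p = 3.59e-05). In the other direction stood a peak 25.2 kb upstream of Il21 (chr3:37257555-37258207), at 492 ± 103 units in anergic, 20.6 ± 16.7 in Treg, 195 ± 15.9 in Teff and 14.3 ± 2.73 in naive libraries. There Treg was 3.47 log2 units below Teff (log2FC -3.47 ± 0.38, adjusted p = 5.36e-07). A few members were open in naive cells as well. The intronic Pde7b peak averaged 211 ± 30.7 units in anergic, 63.5 ± 15.1 in Treg, 29.7 ± 6.37 in Teff and 101 ± 0.642 in naive libraries, and Teff was below naive (-1.76 ± 0.31, adjusted p = 0.000105).

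The members lay away from promoters. Within 1000 bases of a RefSeq start site were 117 members (6.54%), against 34.3% of the other 36653 peaks on chromosomes, and the median distance was 24.4 kb, against 5.26 kb. More than 100 kb from any start site were 14.9% of members, against 4.03% of other peaks. The 1671 distal members were also farther out than the other 24098 distal peaks, with medians of 27.1 and 15 kb. Introns held 54.6% of members and 42.7% of other peaks, while UTRs held 2.74% and 11.9%. Median GC content was 46.8% in members and 53.1% in other peaks, and it was 46.4% against 50.4% among distal peaks alone. Distal members were wider, with a median of 346 bases, against 286 in other distal peaks.

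The 117 promoter members, ordered by gap after their values were seen, were led by Lratd1, Fam20c, Scg2, Gm4792 and Il21, where Fam20c had a pair of peaks. The Lratd1 promoter peak averaged 538 ± 115 units in anergic, 59.6 ± 13.5 in Treg, 73.7 ± 23.4 in Teff and 14.6 ± 3.43 in naive libraries, a gap of 2.87. The Angptl2 peak at the start site, where the gene encodes a secreted angiopoietin-like protein, averaged 1666 ± 329 units in anergic, 409 ± 50.4 in Treg, 358 ± 80.9 in Teff and 240.3 ± 25.6 in naive libraries. Promoter peaks that are not members, and so by the rule have no gap of 1 or more, were set beside those of other genes. The 956 that belong to a gene with a member had a median of 0.16 for anergic minus Treg, 0.08 for anergic minus Teff and 0.07 for anergic minus naive, against 0.10, 0.01 and -0.07 in 11599 promoter peaks of other genes. For genes with 3 or more members the medians were 0.20, 0.22 and 0.26 (119 peaks). Anergic was the highest group in 39.1% of the 956 and in 54.6% of the 119, against 23.1% of the promoter peaks of other genes.

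The members were spread over 1182 of the 13895 genes with a peak, and 858 of these genes had 1 member. At the other end 134 genes had 3 or more and together held 550 members (30.8%). Joined when no more than 20 kb apart, 717 members (40.1%) fell into 276 runs of 2 or more, and 36 runs held 4 or more. The same count was not made for other peaks, so whether members lie closer together than peaks in general was not tested. The longest run had 9 members among 9 peaks over 77.5 kb of chromosome 11 (chr11:88454887-88532343), in the introns of Msi2, an RNA-binding protein gene, and beside the noncoding gene 0610039H22Rik and Ccdc182. A run of 8 members among 8 peaks covered 16.3 kb of chromosome 12 (chr12:110377840-110394100).

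Tnfsf8, which encodes the TNF family ligand of CD30, had the most members, 13 of its 21 peaks, and anergic cells were the highest group at all 21. Gaps ran between 1.03 and 3.27, with members both at the start site and up to 80.3 kb upstream. The peak at 40.6 kb upstream (chr4:63901766-63902008) had the largest gap and a low level, at 154, 98.6 and 129 units in anergic libraries, against 18, 23.4 and 3.8 in Treg, 6.23, 0.826 and 21.7 in Teff, and 5.69 and 0.774 in naive libraries. The peak at 74.5 kb upstream (chr4:63935136-63936353) was the strongest, with means of 1956 units in anergic, 960.0 in Treg, 279 in Teff and 15.5 in naive libraries, and Treg was 1.78 ± 0.16 above Teff (adjusted p = 2.31e-08). Of the 13, Treg was called above Teff in 7 and below it in 0, Treg above naive in 12 and Teff above naive in 7. Over all members these calls were made in 26.8%, 5.09%, 82.4% and 75.4%, and over all peaks tested in 14.4%, 18.2%, 22.3% and 22.7%. Counts of calls for single genes and lists are descriptions beside these shares.

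Ppp2r5c, a regulatory subunit gene of protein phosphatase 2A, had all of its 8 members in the chromosome 12 run, 53.4 to 69.3 kb upstream of its start site, while the peak nearest to the start had a gap of 0.00. The strongest member (chr12:110380925-110382399) averaged 3079 units in anergic, 1297 in Treg, 466 in Teff and 75.9 in naive libraries. Treg was called above Teff in 6 of the 8, beside 26.8% of all members. The member with the largest gap (chr12:110386144-110386602) was not among those 6, at 506, 490.2 and 460.1 units in anergic libraries, against 29.3, 49 and 39.3 in Treg, 55.4, 33.9 and 35 in Teff, and 7.31 and 5.42 in naive libraries.

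Other genes with many members were Rplp1 (12 of 34 peaks), 0610039H22Rik (11 of 21), Fam43a (9 of 14), Eea1 (9 of 16), Tox (8 of 22), Atxn1 (8 of 26) and Itgb1 (8 of 13). The Rplp1 members lay 84.4 to 212 kb from the start site of this ribosomal protein gene, whose own start-site peak had a gap of -0.37. The one with the largest gap (chr9:61819701-61820433) had 547, 347 and 351 units in anergic libraries, against 115, 46.8 and 46.8 in Treg, 49.2, 54.5 and 93.3 in Teff, and 20.3 and 46.5 in naive libraries. The leading member of the chromosome 11 run (chr11:88464365-88464964) had 527, 365 and 449 units in anergic libraries, against 65.3, 44.7 and 68.4 in Treg, 22.2, 12.4 and 18.3 in Teff, and 2.44 and 8.52 in naive libraries. There Treg was called above Teff (1.71 ± 0.39, adjusted p = 0.00191).

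Fam43a had anergic cells highest at all 14 peaks, and its members included the start-site peak and a cluster of 4 peaks 168.6 to 172.0 kb downstream. The most distant member (chr16:30771370-30772070) had 923, 618 and 599 units in anergic libraries, against 77.7, 85.1 and 76 in Treg, 35.3, 65.2 and 71.7 in Teff, and 0.812 and 21.7 in naive libraries. A neighbour in that cluster (chr16:30769040-30769977) was open in all 4 groups, at 1647 units in anergic, 301 in Treg, 350.0 in Teff and 275 in naive libraries, with no call between the last 3. Eea1, an endosome tethering protein gene, also had anergic cells highest at all of its 16 peaks. Its leading member (chr10:95923216-95923614) had 379.7, 325 and 275 units in anergic libraries, against 40.5, 42.6 and 32.9 in Treg, 14.5, 9.08 and 46.7 in Teff, and 1.62 and 3.87 in naive libraries.

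Tox encodes a nuclear factor known for its role in exhausted T cells. All of its 8 members were intronic, 49.8 kb or more downstream of the start site, and the peak nearest to the start had a gap of -0.09. The leading one (chr4:6882556-6883062), shown above, had 839, 732 and 723 units in anergic libraries, against 91.2, 117 and 166 in Treg, 105, 107 and 128 in Teff, and 22.7 and 30.2 in naive libraries. Treg was called above Teff in 3 of the 8 Tox members and below in 0, beside 26.8% and 5.09% of all members. The 8 intronic Atxn1 members went the other way more often, with Treg called above Teff in 1, below in 2, and Treg the next highest group in only 1 of the 8. At the strongest (chr13:45917120-45917938) the means were 1598 units in anergic, 169.9 in Treg, 564 in Teff and 17.7 in naive libraries, and Treg was below Teff (-1.73 ± 0.19, adjusted p = 6.54e-07). The leading Atxn1 member (chr13:45837496-45838147) had 958, 1063 and 1096 units in anergic libraries, against 233, 202 and 187 in Treg, 148, 139.6 and 130 in Teff, and 15.4 and 16.3 in naive libraries.

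**Figure D4:**
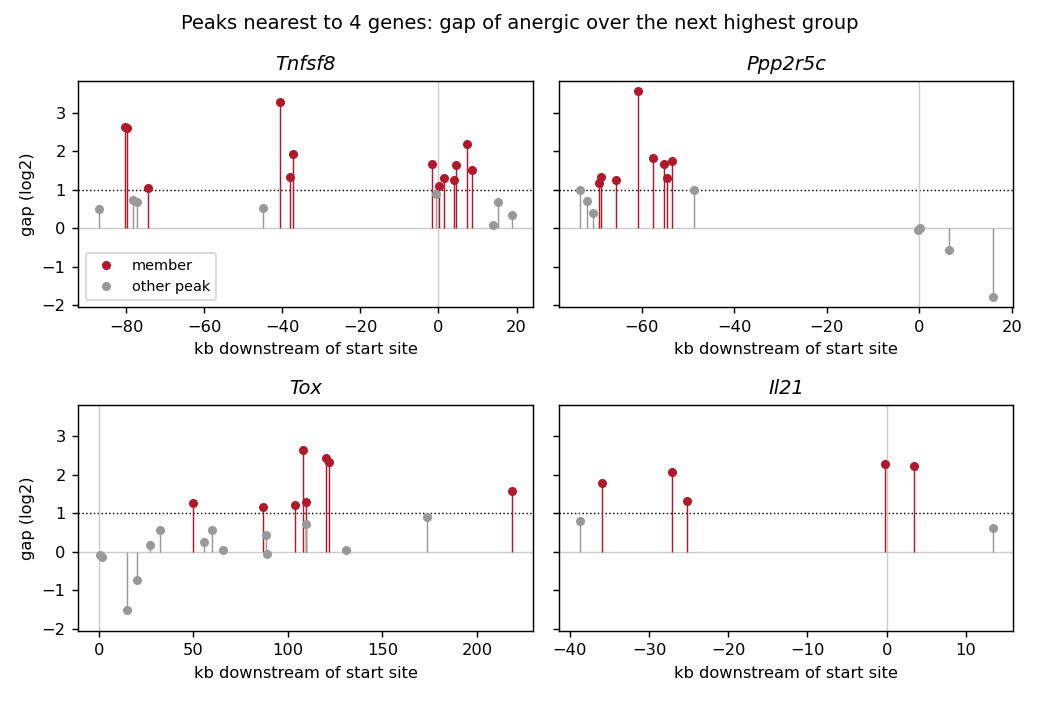
Each peak nearest to Tnfsf8, Ppp2r5c, Tox or Il21, placed by its distance from the start site (kb, downstream to the right) against its gap (log2 of anergic minus the next highest group), with members in red and the margin of 1 dotted. Tnfsf8 and Il21 have members on both sides of the start site, whereas those of Ppp2r5c lie 53.4 to 69.3 kb upstream and those of Tox 49.8 kb or more downstream.

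The sort markers and the genes of the title were looked up whether or not they had a member, and held 8 members of 85 peaks (9.41%). Treg was called above Teff in 3 of the 8, beside 26.8% of all members. Both were called above naive in all 8, beside 82.4% of all members for Treg and 75.4% for Teff. Nt5e, which encodes CD73, had 1 member of 7 peaks, in an intron 5.03 kb from the start (chr9:88332304-88332968), at 534, 638 and 604 units in anergic libraries, against 188, 353 and 257 in Treg, 119.8, 118 and 165 in Teff, and 31.7 and 34.1 in naive libraries. Izumo1r, which encodes FR4, had none of 7 and a highest gap of 0.43. At that peak the anergic libraries had 1741, 2556 and 2514 units, against 1411, 1958 and 1659.9 in Treg, 831, 1089 and 1295 in Teff, and 544 and 755 in naive libraries. Cd44 had 2 of 16, the stronger of them 55.4 kb upstream (chr2:102956558-102957478), with 2170.3, 2132 and 1978 units in anergic libraries, against 979.8, 798 and 1100.3 in Treg, 553, 441 and 462 in Teff, and 38.2 and 60.4 in naive libraries.

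Nrp1, the semaphorin co-receptor used in the gate, had 2 of 13, both beyond 145 kb and next to the distal members of Itgb1 in 1 run. The one in a UTR of Nrp1 (chr8:128504069-128504730) had 245, 355 and 344 units in anergic libraries, against 154, 162 and 120.3 in Treg, 53.3, 62.8 and 78.3 in Teff, and 2.44 and 0.774 in naive libraries. Treg was called above Teff there (1.16 ± 0.31, adjusted p = 0.00679). Foxp3, Il2ra, which encodes CD25, and Cd4 had no member, and the highest gaps were -3.37, -0.18 and 0.59.

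Batf had 2 members of 10 peaks, 20.4 and 26 kb downstream. The intronic one (chr12:85706937-85707255) had 136, 187 and 154 units in anergic libraries, against 38.3, 100 and 41.8 in Treg, 38.1, 38.8 and 83.3 in Teff, and 13 and 13.2 in naive libraries, and did not pass between Treg and Teff (0.12 ± 0.39, adjusted p = 0.838). The peak nearest to the Batf start site had a gap of 0.22. Bcl2l11 had 1 member of 14, 8.21 kb upstream in an intron of Acoxl (chr2:128117601-128118049), at 517, 496 and 383 units in anergic libraries, against 164, 106 and 147 in Treg, 130.1, 129.7 and 132 in Teff, and 52.8 and 24.8 in naive libraries. The peak at the Bcl2l11 start site had a gap of -1.12.

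Groups of genes with known roles held unequal shares of members. The share among all peaks is 4.64%, and the lists are described without a test of the list. They were chosen with earlier results of these data known, so a high share is not independent of that choice. Some genes, such as Tnfsf8, Il21 and Tox2, stand in more than 1 list, so their members count in each. Every list also holds genes with peaks but no member, not all of which are named. The highest share was in TNF superfamily ligands, 18 of 75 peaks (24%), of which 13 belong to Tnfsf8. The others were 1 each at Tnfsf4, Tnfsf11, Lta, Cd70 and Tnfsf13b. The Cd70 peak (chr17:57131735-57132220), near the ligand of CD27, had 411, 440.2 and 325 units in anergic libraries, against 105, 74.5 and 88.6 in Treg, 106, 62.8 and 90 in Teff, and 3.25 and 3.87 in naive libraries, and it held a BATF-IRF composite. The start-site peak of Tnfsf13b, the BAFF gene, averaged 232 units in anergic, 50.4 in Treg, 67.9 in Teff and 5.55 in naive libraries. Treg was called above Teff in 8 of the 18 and below in 0, beside 26.8% and 5.09% of all members. TNF receptors had 1 of 58, an intronic peak of Tnfrsf8, the CD30 gene, with means of 453 units in anergic, 201 in Treg, 108 in Teff and 29.6 in naive libraries.

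Follicular helper genes held 41 members of 248 peaks (16.5%), of which Tnfsf8 had 13, Angptl2 6, Il21 5, Tox2 4 and Icos 3. These members belonged to 12 of the 21 genes with a peak. Bcl6 had none of 9 peaks, Cd40lg none of 9, Il6st none of 25, Tcf7 none of 27 and Lef1 none of 49. The median gap of the list was -0.33, against -0.26 over all peaks. Cytokine genes held 13 of 83 (15.7%), with 5 each at Il10 and Il21 and 1 each at Il22, Lta and Csf1. At Il21, which encodes a cytokine of helper T cells, the start-site peak (chr3:37232557-37233162) had 932, 664 and 623 units in anergic libraries, against 33.8, 85.1 and 35.5 in Treg, 116, 182 and 152 in Teff, and 16.2 and 51.9 in naive libraries. Teff was the next highest group at all 5 Il21 members, and Treg was called below Teff in 3 of them (5.09% of all members). Il10, which encodes an anti-inflammatory cytokine, had the opposite order. Treg was the next highest group at all 5 Il10 members (68.6% of all members) and was called above Teff in 4 (26.8% of all members). The Il10 peak with the largest gap, 16.4 kb upstream (chr1:131002994-131003812), had 2071, 1482 and 1656 units in anergic libraries, against 471, 419 and 503 in Treg, 362, 273 and 288 in Teff, and 11.4 and 6.97 in naive libraries. The difference between Treg and Teff passed at that peak (0.60 ± 0.19, adjusted p = 0.019), and at a peak 18.8 kb downstream it was 1.87 ± 0.23 (adjusted p = 2.42e-06).

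Regulators of exhaustion and tolerance held 22 of 144 (15.3%): Tox 8, Tox2 4, Maf 4, Egr2 3, Ikzf2 2 and Egr3 1. These are 6 of the 17 genes on the list. Prdm1 had none of 10 peaks, Nr4a1 none of 8, Nr4a3 none of 7, Nfil3 none of 7 and Ikzf3 none of 7. The median gap of the list was -0.07, against -0.26 over all peaks. The Ikzf2 peak 216.5 kb downstream (chr1:69469213-69469721), near the gene of the zinc finger factor Helios, had 348, 440.2 and 431 units in anergic libraries, against 24.8, 70.2 and 46.8 in Treg, 35.3, 24.8 and 41.7 in Teff, and 1 read in each naive library. At this peak Treg and Teff did not pass against each other (0.38 ± 0.40, adjusted p = 0.501). A Tox2 peak 36.9 kb upstream averaged 239 ± 18.3 units in anergic, 54.5 ± 3.48 in Treg, 56.4 ± 9.84 in Teff and 12.2 ± 8 in naive libraries (SD). Maf had its leading member 578.6 kb from its start site, in an intron of Wwox, at 91.2, 129 and 126 units in anergic libraries, against 15.8, 36.2 and 36.7 in Treg, 19.4, 19.8 and 38.3 in Teff, and 10.6 and 0.774 in naive libraries.

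Inhibitory receptors and their ligand partners held 10 of 95 (10.5%), 2 each at Ctla4, Pdcd1, Tigit and Cd200 and 1 each at Btla and Lag3. The Ctla4 peak 6.33 kb upstream (chr1:60902399-60902986) had 779, 730.1 and 687 units in anergic libraries, against 215, 187 and 292 in Treg, 83.8, 102 and 86.7 in Teff, and 8.94 and 10.8 in naive libraries. Treg was called above Teff there (1.32 ± 0.22, adjusted p = 6.95e-05) and in 5 of the 10 members of the list, beside 26.8% of all members. The Tigit peak, intronic and 2.46 kb from the start, had 942, 762 and 631 units in anergic libraries, against 289, 343 and 305 in Treg, 232, 155 and 175 in Teff, and 15.4 and 9.29 in naive libraries. NFAT and NF-kB factor genes held 14 of 119 (11.8%), 4 at Nfatc1, 3 each at Nfkbiz and Nfkb1, and 1 each at Nfkbia, Rel, Tnfaip3 and Nfatc2. The Nfkbiz peak (chr16:55733725-55734130) had 359.8, 364 and 351 units in anergic libraries, against 101, 158 and 95 in Treg, 23.5, 40.5 and 70 in Teff, and 4.06 and 5.42 in naive libraries.

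Integrin and adhesion genes held 12 of 110 (10.9%), with 8 at Itgb1, 2 at Cd44 and 1 each at Itgav and Itga4. The intronic Itgav peak (chr2:83762125-83762713) had 620.1, 512 and 519.9 units in anergic libraries, against 146, 211 and 148 in Treg, 32.5, 28.9 and 16.7 in Teff, and 2.44 and 3.1 in naive libraries, with Treg 2.68 ± 0.30 above Teff (adjusted p = 7.69e-07). Treg signature genes held 7 of 140 (5%), at Ctla4, Ikzf2, Nrp1 and Nt5e, and chemokine and homing receptors 6 of 148 (4.05%), among them 3 at Cxcr4 and 1 each at S1pr1 and Cxcr5.

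Lists of anergy-linked, AP-1, IRF, BCL2 family and lineage genes held shares smaller than the 4.64% of all peaks. The members of each of these lists are so few that the share cannot be told from that of all peaks, and no list was tested. Ubiquitin ligases, diacylglycerol kinases and other brakes on T cell receptor signalling that have been linked to anergy held 6 of 242 peaks (2.48%), 3 at Nedd4l, 2 at Ubash3b and 1 at Socs1. The Nedd4l peak with the largest gap had 141, 169 and 140.4 units in anergic libraries, against 20.3, 34.1 and 24.1 in Treg, 24.2, 14 and 11.7 in Teff, and 16.2 and 10.8 in naive libraries. AP-1, BATF, ATF and BACH factor genes held 2 of 142 (1.41%), both at Batf, and IRF genes 1 of 49 (2.04%), at Irf8. BCL2 family genes held 3 of 86 (3.49%), 2 at Bcl2l14 and 1 at Bcl2l11. Th1, Th2 and Th17 lineage genes held 3 of 101 (2.97%), 2 at Stat4 and 1 at Tbx21. The intronic Tbx21 peak, in the gene of the Th1 factor T-bet, had 826, 521 and 716 units in anergic libraries, against 70.9, 100 and 86.1 in Treg, 291, 343 and 308 in Teff, and 13.8 and 10.1 in naive libraries. Treg was called below Teff there (-1.87 ± 0.22, adjusted p = 1.45e-06).

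Genes of naive and quiescent T cells held 3 of 409 (0.733%), 1 each at Dapl1, S1pr1 and Ets1, and housekeeping genes 0 of 52. Lists of other cell types were checked because a sort can hold such cells. CD8, NK and innate-like T genes held 0 of 34 peaks and erythroid and platelet genes 0 of 7. Of 6 defining erythroid and platelet markers 3 had a peak, with a summed signal of 4469 to 4849 in anergic, 3201 to 3394 in Treg, 3597 to 3850.3 in Teff and 4107 to 4232 in naive libraries. Among them the peak nearest to Itga2b, a platelet integrin gene, had 2315, 1871 and 2094 units in anergic libraries, against 1213, 1262 and 1227 in Treg, 1135, 1148 and 983 in Teff, and 1223 and 1142 in naive libraries. The Klf1 peak went the other way against naive libraries, at 1754, 1982 and 2286 units in anergic, 1859, 1549.6 and 1870.1 in Treg, 2197, 2315 and 2247 in Teff, and 2789 and 2688 in naive libraries. The peak nearest to Alas2 had 171, 157 and 109 units in anergic, 128, 147 and 114 in Treg, 25.6, 43.8 and 40 in Teff, and 25.2 and 49.6 in naive libraries. Gata1, Hbb-bt and Pf4 had no peak. Of 6 CD8, NK and innate-like T markers 4 had a peak, with a summed signal of 20943 to 26433 in anergic, 19488 to 24928 in Treg, 25197 to 28967 in Teff and 23920.1 to 24412 in naive libraries. B cell genes held 1 of 12, at Ly86, and of 8 defining B cell markers 2 had a peak, with a summed signal of 404 to 484 in anergic, 442 to 466 in Treg, 420.4 to 529.6 in Teff and 563 to 628 in naive libraries. Myeloid and dendritic genes held 3 of 19, 2 at Cebpa and 1 at Mpo. Of 8 defining myeloid markers 4 had a peak, and their summed signal was 3983 to 4405 in anergic, 2591 to 2668 in Treg, 2222 to 2885 in Teff and 1243 to 1376 in naive libraries. Most of that difference was the start-site peak of Cebpa, a transcription factor gene, at 2353, 2187 and 2279 units in anergic libraries, against 603, 624 and 685 in Treg, 572, 546 and 752 in Teff, and 117 and 134 in naive libraries. The Itgam peak went the other way, at 26.5, 31.1 and 16.1 units in anergic, 45, 36.2 and 20.3 in Treg, 57.5, 37.2 and 36.7 in Teff, and 212 and 141 in naive libraries. The nearest peaks of Adgre1 (376, 336 and 449 units in anergic, 307, 298 and 406 in Treg libraries) and Zbtb46 (857, 742 and 906 in anergic, 895, 896 and 782 in Treg libraries) overlapped between anergic, Treg and Teff libraries. Csf1r, Lyz2, Cd14 and Flt3 had no peak. The part of other cell types in these results was not tested.

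Several short motifs in the 300 bases around the peak centre differed in share between members and other peaks, described here with no test. In peaks narrower than this window the search reached beyond the peak. The AP-1 motif was present in 562 members (31.4%), against 8.21% of other peaks and 9.29% of all peaks. Among distal peaks only, it was present in 32.9% of members and 10.6% of others. At least 2 matches were found in 105 members (5.87%), against 0.867% of other distal peaks. The share did not follow the size of the gap, at 30.7% for gaps of 1 to 1.5 and 29.2% for gaps of 3 or more.

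The NFAT motif was present in 371 members (20.7%), against 6.2% of other distal peaks and 5.97% of all peaks, and here the share was larger at larger gaps, at 17.1% for gaps of 1 to 1.5 and 28.8% for gaps of 2 to 3. A composite of an NFAT core and an AP-1 motif at a fixed spacing, of the kind known from cytokine promoters, was present in 1.23% of members and 0.124% of other distal peaks. The adjacent and spaced BATF-IRF composites were present in 1.57% and 1.51% of members, against 0.249% and 0.212% of other distal peaks. The composites contain the AP-1 motif, so these counts overlap. The members of Dusp14, Cd70 and Nfkbiz named above are among those with the adjacent form. The cyclic AMP response element TGACGTCA, which ATF and CREB factors bind, was present in 1.4% of members and 1.41% of all peaks. Among distal peaks only, it was present in 1.26% of members and 0.959% of others.

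The octamer was present in 105 members (5.87%), against 1.65% of other distal peaks and 1.61% of all peaks. The TCF and LEF motif ATCAAAG was present in 10.8% of members, 6.22% of other distal peaks and 5.06% of all peaks. The NF-kB motif, written as GGGANTTCC or as GGGANTTTC, was present in 6.49% of members, 4.03% of other distal peaks and 3.87% of all peaks. Other motifs were rarer in members. ETS matches, written as CAGGAAGT or as CCGGAAGT, were present in 5.59% of members, 10.4% of other distal peaks and 9.84% of all peaks. The CTCF motif was present in 0.951% of members, 6.76% of other distal peaks and 4.66% of all peaks. RUNX matches, AACCACA, were at similar shares, 13.1% of members, 14.8% of other distal peaks and 11.2% of all peaks. All motifs were searched on both strands, and a match is a stretch of letters and not evidence of binding.

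GC content differs between members and other peaks, so the shares were also read within bands of it, an alternative added after the data were seen. Among distal peaks with 45% to 50% GC, AP-1 was present in 33.3% of 564 members and 11.4% of 7176 other peaks, NFAT in 20.7% and 6.74%, the octamer in 6.91% and 1.85%, and ETS in 6.74% and 10.9%. Among those with 50% to 60% GC, AP-1 was present in 32.4% of 413 members and 9.71% of 10918 other peaks, and NFAT in 15.3% and 5.04%.

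The peaks that the same rule chose for the other groups held other motifs. AP-1 was present in 31.4% of anergic-high, 14.8% of Treg-high, 9.8% of Teff-high and 5.34% of naive-high peaks. NFAT was present in 20.7% of anergic-high peaks and in 3.06%, 3.31% and 3.63% of the Treg-high, Teff-high and naive-high peaks. The T-box motif AGGTGTGA, bound by T-bet and Eomes, was present in 2.46% of anergic-high, 1.02% of Treg-high, 10.6% of Teff-high and 0.792% of naive-high peaks, beside 1.63% of all peaks. NF-kB was more frequent in Treg-high (10.7%) than in anergic-high peaks (6.49%), and the TCF and LEF motif was present in 14.5% of naive-high peaks. Within the members, AP-1 was present in 33.5% of those with Treg as the next highest group and 26.7% of those with Teff.

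**Figure D5:**
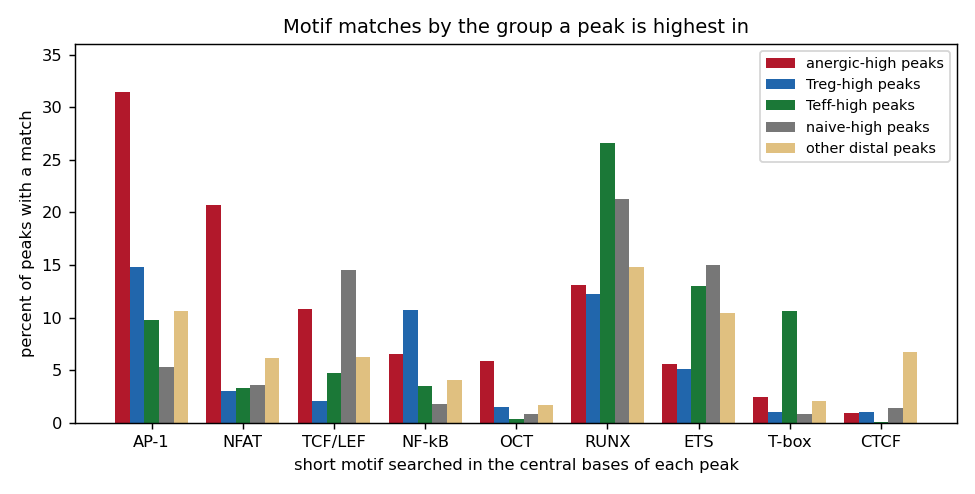
Percent of peaks with a match to each of 9 motifs, for peaks that the rule assigns to anergic (1788), Treg (196 on chromosomes), Teff (847) or naive cells (1516 on chromosomes) and for the 24098 distal peaks that are not members. AP-1, NFAT and OCT bars are highest for anergic-high peaks, T-box and RUNX bars for Teff-high peaks.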

How the data were processed

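ATAC-seq libraries of sorted CD4 T cells (anergic 3, Treg 3, Teff 3, naive 2) were compared over 38509 peaks. The authors deposited 1 table of signal per peak and library on mm10. The submitters' processing notes name Bowtie2 2.3.3.1, Genrich 0.5 and deepTools 3.5.1.0.1, and the role of each is not given there. Each column of the deposited signal was whole reads times 1 factor (100.0% of values whole within 0.01, 0.5271 to 2.129 units per read), how that factor was chosen is not given in the sources used here, and the lowest value in a column is 1 read, so a peak without reads cannot be told from one with 1. Fewer reads (14.7 M in Treg replicate 2) make low values less precise.

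Members were chosen by the rule stated at the opening. The members and the gene lists were chosen with earlier results of these data known. Comparisons among Treg, Teff and naive used limma 3.58.1 (R 4.3.3, trend) on log2(signal + 1) in 1 fit of all 11 libraries, after a filter on low counts that removed 16 peaks (edgeR 4.0.16 filterByExpr), with Benjamini-Hochberg adjustment over 38493 peaks and a threshold of 0.05. Peak starts, counted from 0 in the table, were raised by 1. The nearest gene is that of the nearest of 44322 RefSeq transcript starts (GRCm38.p6), and a promoter peak lies within 1000 bases. Motifs were searched in the 300 bases around each peak centre, also where the peak is narrower.

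Named members were the 12 with the largest gap, the leading member of the 8 genes with most members, leading members of listed genes, the sort markers with Batf and Bcl2l11, and the 3 peaks on each side of the margin. A few items that this rule names are not reported here. Alternatives were other margins, pseudocounts, scalings and filters, edgeR and DESeq2 1.42.0 on the recovered reads, other windows and leaving out each library.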

Additional observations from a re-analysis of the deposited data

How the results depend on the processing

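The number of members was 864 with a margin of 1.5, 374 with a margin of 2, 1718 with a pseudocount of 5, 1578 with equal total reads (1574 of them shared), 1718 with TMM scaling (1715 shared), and 1724 to 1865 without single libraries. Treg was the next highest group in 74.3% of members with equal total reads, in 63.9% without Treg replicate 2 and in 72.3% without Teff replicate 3, both added after the data were seen. Without single libraries, members called numbered 353 to 558 higher and 66 to 111 lower for Treg against Teff, 1152 to 1353 and 6 to 13 for Teff against naive, and 1329 to 1489 and 6 to 12 for Treg against naive. The lowest counts below naive came without naive replicate 2 for Teff (6) and without Treg replicate 3 for Treg (6), and without naive replicate 1 both counts were 7. Equal total reads left 6 members lower in Treg than naive. With a promoter window of double width 10.9% of members lay at a start site, and 27% held AP-1 in a 200-base window. On recovered reads edgeR called 598 members higher and 84 lower in Treg than Teff, and DESeq2 588 and 101. Deviations of same-numbered libraries from their group means had correlations of 0.15, -0.02 and -0.05 for Treg with Teff. Over all pairs of groups they ran from -0.11 to 0.16, and those of differently numbered libraries from -0.22 to 0.19. Deviations within so few libraries depend on each other, so these values cannot decide whether the numbers pair the samples. With a replicate block the counts were 498 and 96 for Treg against Teff, 1329 and 12 for Teff against naive, and 1462 and 11 for Treg against naive. The cause of these shifts was not tested. Depth was lowest in Treg replicate 2 (14.7 M reads in peaks). In the naive libraries, which held 45.7 and 48.1 M, 169 and 206 members stood at 1 read.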
